A study of Mus musculus with 12 samples.

Results

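Nr3c1, which encodes the glucocorticoid receptor, was examined together with Fkbp5, Tsc22d3, Zbtb16, Klf9, Sgk1, Tat, Ddit4, Mt1 and Mt2, genes that are widely used as readouts of the receptor. These 10 genes were picked by symbol from the 24532 genes of the expression table, and all 10 passed the low-count filter that left 14038 genes for testing. RNA-seq was done on whole liver from male C57BL/6 mice in 4 groups of 3 livers each, named WT con, WT EtOH, Ahr HKO con and Ahr HKO EtOH. EtOH mice were kept for 5 weeks, from an age of 10 to 12 weeks, on the Lieber-DeCarli liquid diet (ethanol at 5% by volume, supplying 36% of calories), and con mice were kept on an isocaloric liquid diet over the same period. Ahr HKO mice carried Ahr fl/fl alleles, with loxP sites around exon 2 of the aryl hydrocarbon receptor gene. They also carried Alb-Cre, in which the albumin promoter drives Cre in hepatocytes. Deletion in other liver cells was not examined here. WT mice were Ahr fl/fl littermates without Cre, and the floxed alleles were therefore present in every group. The sequenced livers were drawn at random from larger groups of mice, and p-values measure only the spread between these livers.

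In the mouse, corticosterone binds the glucocorticoid receptor, which waits in the cytosol with the chaperone HSP90 and then moves to the nucleus to bind glucocorticoid response elements in DNA. In liver the receptor is known for switching on gluconeogenesis and amino acid breakdown, and some of its targets, such as Fkbp5, act back on the receptor itself. Metallothionein genes respond to glucocorticoids and also to zinc, which acts through the transcription factor MTF1 at short metal response elements.

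Promoter windows of Sgk1, Mt1 and Mt2 are printed because they carry these elements at genes whose levels differed between the groups. Promoter windows of 300 bases, from 250 before to 50 after a RefSeq start on GRCm38.p6, were at hand for 8 of the 10 genes, 15 windows in all. The full element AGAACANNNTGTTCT occurred in 3 of 32851 promoter windows of the genome (0.00913%), and 1 of these belongs to Sgk1. Sgk1 has windows at several RefSeq starts, and only 1 of them held the full element. Counts per gene do not show which start was used. In the window chr10:21993640-21993939 (plus strand) the element begins 189 bases before the start of that window's transcript. Its matched arms are in capitals.
Sgk1 element, chr10:21993701-21993715: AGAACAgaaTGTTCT
Sgk1 promoter: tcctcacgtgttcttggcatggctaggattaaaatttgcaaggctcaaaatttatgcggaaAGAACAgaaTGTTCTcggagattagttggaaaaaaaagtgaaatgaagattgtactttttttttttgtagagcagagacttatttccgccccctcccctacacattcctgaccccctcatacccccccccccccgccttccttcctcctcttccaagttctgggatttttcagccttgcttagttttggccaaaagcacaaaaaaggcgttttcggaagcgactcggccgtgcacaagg
A single arm, TGTTCT or AGAACA, was present in 19.0% of all windows and, among the 8 genes, in windows of Sgk1 and Tsc22d3.

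The core of the metal response element was searched as TGCACNC or TGCGCNC on both strands, and its matches are in capitals in the windows of Mt2 (chr8:94172368-94172667) and Mt1 (chr8:94178839-94179138), both on the plus strand of GRCm38.p6.
Mt2 promoter: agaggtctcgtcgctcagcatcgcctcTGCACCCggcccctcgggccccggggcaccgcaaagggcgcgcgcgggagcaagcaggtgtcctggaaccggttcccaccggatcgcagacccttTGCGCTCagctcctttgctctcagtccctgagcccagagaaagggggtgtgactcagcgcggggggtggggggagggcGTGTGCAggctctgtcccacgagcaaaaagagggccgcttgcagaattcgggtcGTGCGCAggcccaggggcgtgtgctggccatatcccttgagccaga
Mt1 promoter: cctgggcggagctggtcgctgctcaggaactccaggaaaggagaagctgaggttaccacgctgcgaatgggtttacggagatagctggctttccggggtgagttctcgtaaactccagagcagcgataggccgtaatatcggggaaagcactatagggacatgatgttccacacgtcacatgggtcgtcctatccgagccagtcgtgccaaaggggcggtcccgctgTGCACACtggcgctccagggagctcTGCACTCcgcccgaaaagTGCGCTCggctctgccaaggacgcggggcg
Mt2 held 4 matches and Mt1 held 3, whereas 25.7% of all windows held any match and 0.517% held 4 or more. The full glucocorticoid element was in neither window. The letters alone do not show that a factor binds there.

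Each library held 46306518 to 74336255 reads counted on genes. Levels are given as CPM, read counts relative to the library size after TMM scaling, and 3 counts, taken as the smallest detectable level, came to 0.0425 to 0.0676 CPM, which covers counting error only. Every value of the 10 genes lay above it. Ahr itself, counted over the whole gene, stood at 16.6 to 20.1 CPM in WT con, 20.8 to 30.5 in WT EtOH, 41.3 to 65.5 in Ahr HKO con and 24.7 to 41.8 in Ahr HKO EtOH. It was therefore higher, not lower, in the livers labelled Ahr HKO on the control diet (log2 fold change 1.63 ± 0.19 SE, adjusted p = 0.00164), and its difference on the ethanol diet was 0.40 ± 0.21 (adjusted p = 0.316). Reads were not split by exon, so these counts cannot show whether exon 2 was removed, and every direction between genotypes below rests on the labels. For this mouse line, the paper reports hepatocyte-specific deletion by PCR and silencing of AhR in hepatocytes by immunoblot. It does not say that the sequenced livers were the ones checked. Hepatocyte markers were abundant in all 12 livers, with a sum over 6 genes of 74314 to 116897 CPM.

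Changes of the 10 genes with diet and genotype were tested per pair of groups with edgeR's quasi-likelihood test, and a gene was called at an adjusted p under 0.05 over all tested genes. In WT livers, 4 of the 10 genes rose with ethanol, Tsc22d3, Sgk1, Zbtb16 and Tat, and none fell by edgeR, DESeq2 or an unadjusted p under 0.05, against 4.84% of all tested genes called higher and 4.63% called lower. In the livers labelled Ahr HKO, Zbtb16 rose with ethanol and Mt1 and Mt2 fell, against 14.9% and 15.9% of all genes. These were 1 and 2 of the 10 genes, shares near those of all genes. On the control diet, Fkbp5, Sgk1, Zbtb16, Tat, Mt1 and Mt2 were higher in Ahr HKO con than in WT con, against 15.4% of all genes. Nr3c1 was lower there, as 1 of the 10 genes, a share near the 14.2% of all genes. On the ethanol diet, Fkbp5, Zbtb16 and Tat were higher in Ahr HKO EtOH than in WT EtOH and none was lower by edgeR or DESeq2, against 0.712% and 0.392%, while Sgk1 was lower at an unadjusted p of 0.0155. The genotype-by-diet interaction was called for Sgk1 and Zbtb16, both with a smaller rise in the livers labelled Ahr HKO, against 11.2% of all genes called upward and 11.1% downward. Each group enters 2 of the 4 pairwise comparisons, so these comparisons share livers.

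The median log2 fold change of the 10 genes was 0.82 for ethanol in WT and 0.24 for ethanol in Ahr HKO. Between genotypes it was 1.40 on the control diet and 0.69 on the ethanol diet. The corresponding medians of all 14038 genes lay between -0.02 and 0.03. In bulk tissue, fewer cells of a type and less RNA per cell cannot be told apart. Neutrophil markers moved with some of these differences, and the sum over their 5 genes was 1.29 to 2.86 CPM in WT con, 4.43 to 7.89 in WT EtOH, 7.15 to 8.56 in Ahr HKO con and 2.41 to 3.44 in Ahr HKO EtOH. Of these 5 genes, 2 were at 3 counts or fewer in every Ahr HKO EtOH library. All 7 Kupffer cell and macrophage markers were called lower with ethanol in the livers labelled Ahr HKO, against 15.9% of all tested genes. Their sum was 197 to 241 CPM there, against 303 to 753 on the control diet. All 6 sinusoidal endothelial markers had lower fitted values in that comparison as well, 3 of them called. Their sum was 168 to 187 CPM against 242 to 266. The sum of 5 cholangiocyte markers ranged from 44.5 to 476 CPM in Ahr HKO con and from 37.1 to 67.1 in Ahr HKO EtOH. With ethanol in WT, 2 of 6 stellate cell markers were called higher, against 4.84% of all tested genes. The part of these cells in the results below was not tested.

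**Figure D1:**
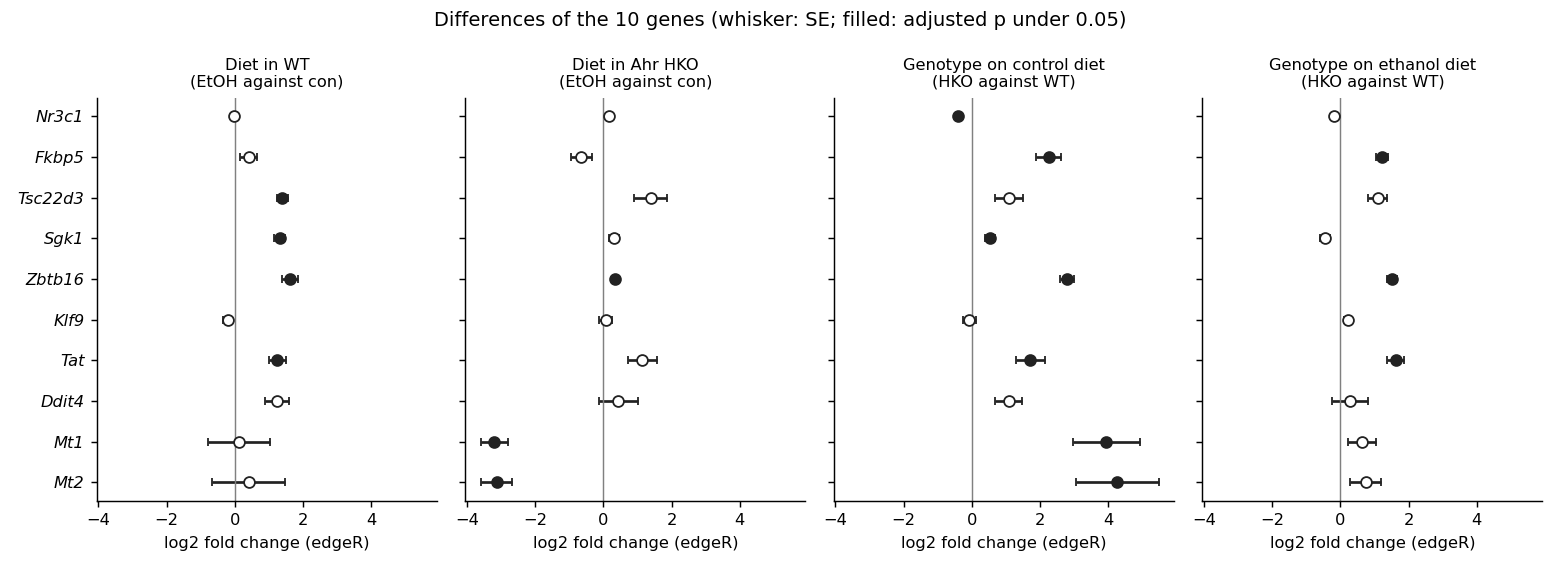
Log2 fold change of each gene (horizontal axis, from edgeR) in the 4 comparisons between groups, with whiskers for the SE and filled points for an adjusted p under 0.05. Tsc22d3, Sgk1, Zbtb16 and Tat are filled to the right of 0 for ethanol in WT, and Mt1 and Mt2 lie far to the right for genotype on the control diet and far to the left for ethanol in the livers labelled Ahr HKO.

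Per length, the authors' FPKM values placed Mt1, Tat and Mt2 at the top of the 10 genes in WT con and Zbtb16, Ddit4 and Sgk1 at the bottom. The WT con means were 289 ± 361 FPKM (SD, n = 3) for Mt1, 188 ± 46.8 for Tat and 145 ± 200 for Mt2, which did not differ beyond their spread. Klf9 (26.5 ± 4.42 FPKM), Tsc22d3 (19.8 ± 3.00) and Fkbp5 (17.3 ± 6.62) followed, with Fkbp5 overlapping both of the others. Nr3c1 came next at 8.92 ± 0.53 FPKM, above Sgk1 (3.94 ± 0.63), Ddit4 (3.39 ± 1.20) and Zbtb16 (2.12 ± 0.63), where Ddit4 overlapped with both Sgk1 and Zbtb16. The order was not the same elsewhere, and in Ahr HKO con Zbtb16 reached 14.7 ± 0.27 FPKM, above Nr3c1 at 6.91 ± 0.77. Tat was the most abundant of the 10 genes in Ahr HKO EtOH, at 1323 ± 288 FPKM, and Mt1 in Ahr HKO con, at 4427 ± 1110 FPKM.

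**Figure D2:**
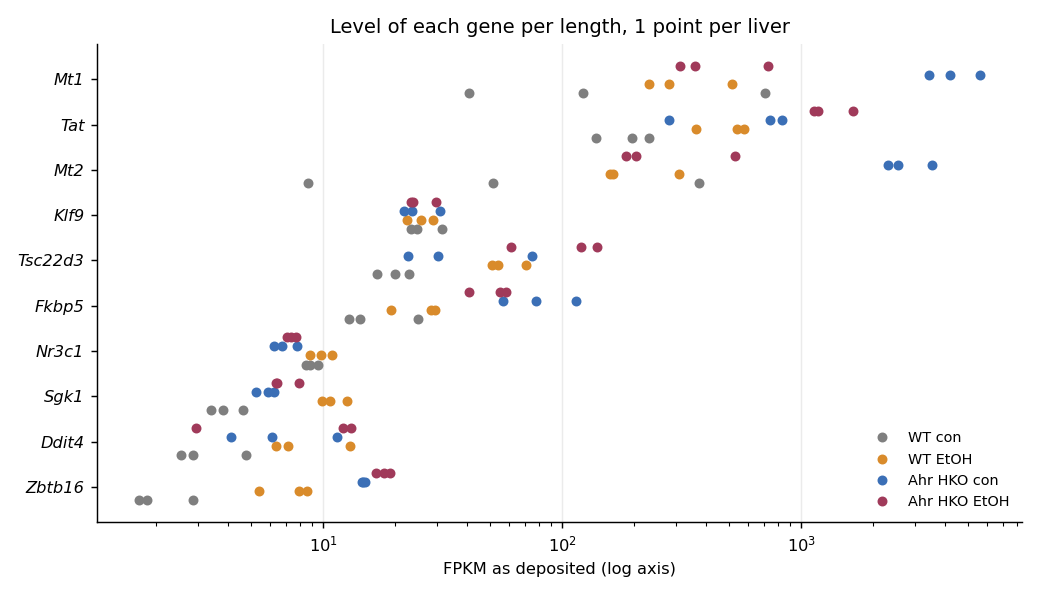
Level of each gene per length, as deposited FPKM on a log axis, with 1 point per liver and a color per group. Mt1 and Mt2 in Ahr HKO con stand at the far right, Klf9 and Nr3c1 hardly spread, and Zbtb16 ranges from 1.70 FPKM in WT con to 19.0 in Ahr HKO EtOH.

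Nr3c1 (RefSeq, GRCm38.p6, chr18:39410545-39519421) encodes the receptor, a ligand-activated transcription factor, and was the steadiest of the 10 genes. It stood at 63.4, 57.5 and 58.5 CPM in the WT con livers and at 55.9, 60.4 and 58.6 CPM in WT EtOH. In the livers labelled Ahr HKO it stood at 44.6, 48.4 and 43.4 CPM on the control diet and 53.2, 48.1 and 52.3 CPM on ethanol. The WT groups overlapped with each other, whereas every Ahr HKO liver lay below every WT liver on the same diet. The difference was called on the control diet (log2 fold change -0.39 ± 0.09, adjusted p = 0.0173), but without WT con liver 1 it was -0.35 with an adjusted p of 0.0626. On the ethanol diet it was -0.19 ± 0.09 (adjusted p = 0.268), and the change with ethanol was -0.02 ± 0.09 in WT and 0.17 ± 0.09 in Ahr HKO (adjusted p = 0.900 and 0.188).

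The genes whose log2 CPM, centred over the 12 libraries, lay closest to that of Nr3c1 among 11879 genes were Tec, Ephb4 and Msrb2, with root mean square differences of 0.08, 0.09 and 0.09. Nr3c1 itself departed from its own mean by 0.17 on that scale, so a flat gene would already be close. Ephb4 followed the receptor's order of groups, with 32.2 ± 3.59 CPM in WT con, 31.2 ± 0.11 in WT EtOH, 22.9 ± 0.59 in Ahr HKO con and 26.9 ± 2.77 in Ahr HKO EtOH (SD, n = 3).

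Fkbp5 (chr17:28398753-28486149) encodes FKBP51, the HSP90 co-chaperone that lowers the receptor's affinity for its ligand. It stood at 52.5, 59.4 and 102 CPM in WT con and 75.0, 96.2 and 108 CPM in WT EtOH. In Ahr HKO con it stood at 317, 217 and 486 CPM, and in Ahr HKO EtOH at 233, 244 and 178 CPM. Every liver labelled Ahr HKO lay above every WT liver, while the diets overlapped within each genotype. Fkbp5 was 4.79-fold higher in Ahr HKO con than in WT con (log2 fold change 2.26 ± 0.36, adjusted p = 0.00485), and this was called after leaving out any single library. On the ethanol diet the difference was 2.35-fold (1.23 ± 0.18, adjusted p = 0.0383), but it was called in 1 of the 6 fits that leave out a library, with log2 fold changes of 1.10 to 1.36. Leaving out WT EtOH liver 1 or 2, or Ahr HKO EtOH liver 1, 2 or 3, gave adjusted p of 0.0704 to 0.106, and limma on log2(FPKM + 1) gave 0.0544. The changes with ethanol were not called, at 0.40 ± 0.26 in WT (adjusted p = 0.376) and -0.64 ± 0.30 in Ahr HKO (adjusted p = 0.138). The latter was called at -0.89 without Ahr HKO con liver 2 (adjusted p = 0.0424).

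The nearest genes to Fkbp5 by the same measure were Itgb3, Bcl2l1 and Arhgef26, at root mean square differences of 0.41, 0.42 and 0.43, where Fkbp5 departed from its own mean by 0.97. Bcl2l1, which encodes the survival protein BCL-XL, stood at 33.5 ± 5.60 CPM in WT con, 29.2 ± 1.64 in WT EtOH, 98.7 ± 31.9 in Ahr HKO con and 71.7 ± 7.31 in Ahr HKO EtOH (SD, n = 3).

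**Figure D3:**
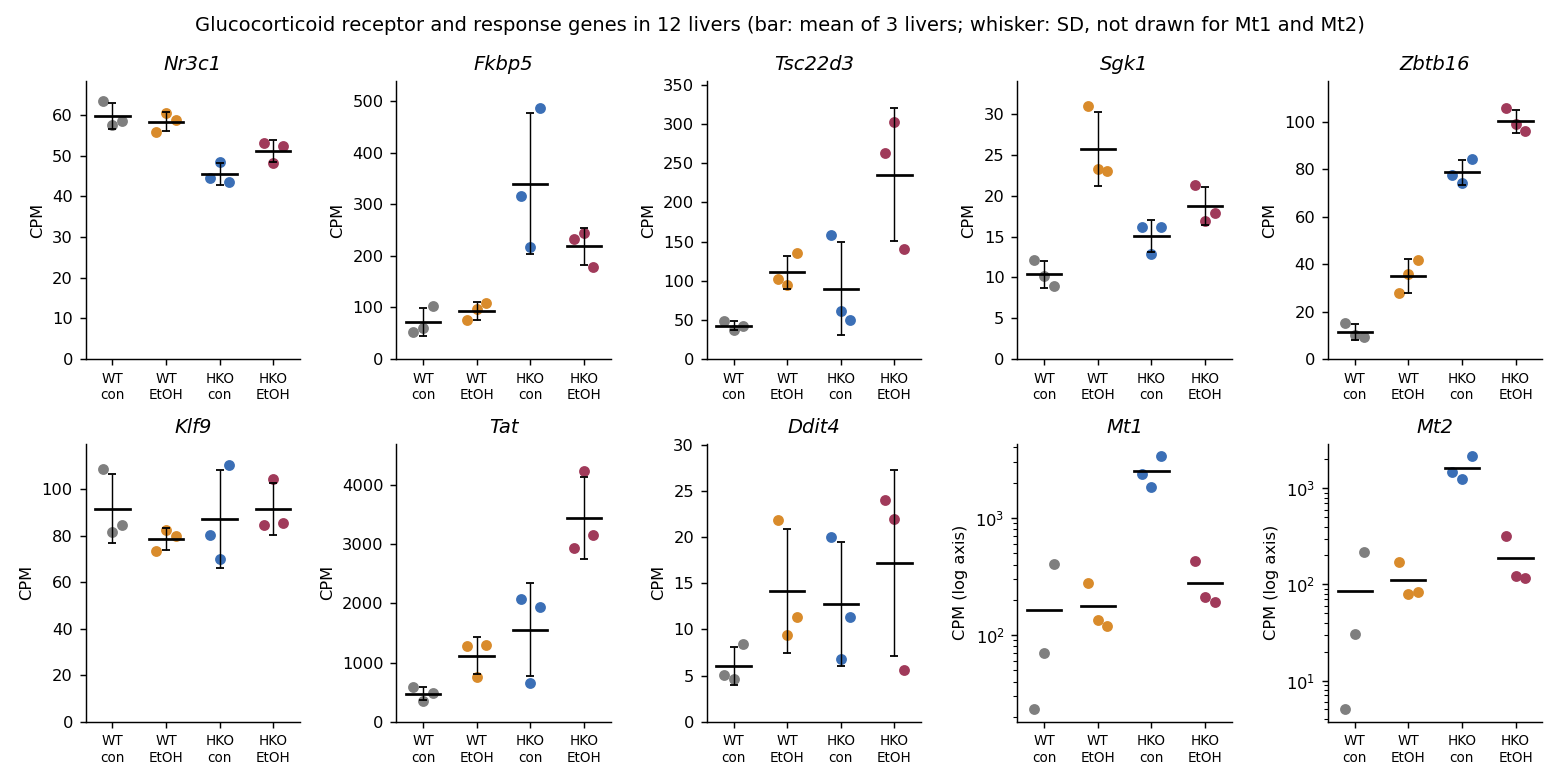
CPM of the 10 genes in each of the 12 livers, with 1 point per liver, a bar for the group mean of 3 livers and whiskers for the SD (linear axes from 0, except log axes without whiskers for Mt1 and Mt2). Fkbp5 and Zbtb16 are higher in every liver labelled Ahr HKO than in any WT liver, Sgk1 is highest in WT EtOH, and Klf9 overlaps between most groups.

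Tsc22d3 (chrX:140539528-140600522) encodes GILZ, a leucine zipper protein that mediates anti-inflammatory actions of glucocorticoids. It stood at 48.5, 36.7 and 42.3 CPM in WT con and at 102, 95.0 and 135 CPM in WT EtOH, so the diets did not overlap. In Ahr HKO con it stood at 159, 61.0 and 50.4 CPM, where liver 1 was far above the others, and in Ahr HKO EtOH at 263, 303 and 140 CPM. The rise with ethanol in WT was 2.63-fold (log2 fold change 1.39 ± 0.16, adjusted p = 0.00518) and was called in all 6 fits that leave out a library. The fitted change in Ahr HKO was of the same size, 1.39 ± 0.48, with a wider error (adjusted p = 0.0654). Without Ahr HKO con liver 1 it was 2.09 (adjusted p = 0.0143), and in a single fit of all 12 libraries it was called at 1.39 (adjusted p = 0.0197). The interaction was 0.01 ± 0.56 (adjusted p = 0.996), so the diet effect did not differ detectably between genotypes. Differences between genotypes were not called, at 1.08 ± 0.41 on the control diet (adjusted p = 0.0850) and 1.09 ± 0.29 on ethanol (adjusted p = 0.11), although every Ahr HKO liver was above every WT liver within each diet. Without Ahr HKO con liver 3 the former was called at 1.37 (adjusted p = 0.0362), and DESeq2 called the latter at 1.09 (adjusted p = 0.00386).

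Zbtb16 (chr9:48651797-48836225) encodes PLZF, a zinc finger transcriptional repressor. Its values were 15.3, 10.1 and 9.14 CPM in WT con, 27.6, 35.6 and 41.6 CPM in WT EtOH, 77.6, 74.1 and 84.4 CPM in Ahr HKO con and 106, 98.8 and 95.9 CPM in Ahr HKO EtOH. The 4 groups did not overlap at all. Zbtb16 rose 3.07-fold with ethanol in WT (log2 fold change 1.62 ± 0.24, adjusted p = 0.0108), with an adjusted p of 0.0513 without WT con liver 2. In Ahr HKO the rise was 1.27-fold (0.35 ± 0.11, adjusted p = 0.0451), with an adjusted p of 0.0526 by limma on log2(FPKM + 1) and 0.164 in a single fit of all 12 libraries. It was called in 1 of the 6 fits that leave out a library, with an adjusted p of 0.105 and 0.0963 without Ahr HKO con livers 1 and 2 and of 0.113, 0.0968 and 0.0856 without Ahr HKO EtOH livers 1, 2 and 3. The smaller rise was itself called as an interaction (-1.26 ± 0.26, adjusted p = 0.00753), and this held in 12 of 12 such fits. Between genotypes Zbtb16 was 6.86-fold higher in Ahr HKO on the control diet (2.78 ± 0.20, adjusted p = 0.000725) and 2.86-fold higher on ethanol (1.52 ± 0.16, adjusted p = 0.0179). The latter had an adjusted p of 0.0743, 0.0511 and 0.0799 without WT EtOH liver 2, Ahr HKO EtOH liver 2 and Ahr HKO EtOH liver 3.

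Klf9 (chr19:23141226-23168129) encodes a Krüppel-like transcription factor that is induced by glucocorticoids in many tissues. Its values were 109, 81.7 and 84.6 CPM in WT con, 73.3, 82.6 and 79.7 in WT EtOH, 80.4, 70.1 and 111 in Ahr HKO con and 84.7, 104 and 85.3 in Ahr HKO EtOH. All groups overlapped except that the Ahr HKO EtOH livers lay just above the WT EtOH livers. The log2 fold changes ran from -0.21 ± 0.13 (ethanol in WT, adjusted p = 0.363) to 0.22 ± 0.12 (genotype on ethanol, adjusted p = 0.339), and none was called.

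Sgk1 (chr10:21882184-21999903) encodes a serine/threonine kinase that regulates ion transport. The 1 of its several promoter windows that holds the full response element is printed above. It stood at 12.2, 10.1 and 8.89 CPM in WT con and 31.0, 23.2 and 23.1 CPM in WT EtOH. In Ahr HKO con it stood at 16.1, 12.8 and 16.2 CPM and in Ahr HKO EtOH at 21.3, 17.0 and 17.8 CPM. No pair of compared groups overlapped, and the order between genotypes turned with the diet. Sgk1 rose 2.50-fold with ethanol in WT (log2 fold change 1.32 ± 0.16, adjusted p = 0.00625), which was called in all 6 fits that leave out a library. In Ahr HKO the change was 0.31 ± 0.14 (adjusted p = 0.138), and the interaction was called (-0.99 ± 0.23, adjusted p = 0.0113), also in 12 of 12 fits that leave out a library. Sgk1 was 1.45-fold higher in Ahr HKO con than in WT con (0.54 ± 0.15, adjusted p = 0.0366). That call was lost without WT con liver 2 or 3 (adjusted p = 0.11 and 0.114), without Ahr HKO con liver 1 or 3 (0.0956 and 0.0877) and with upper-quartile scaling (0.0512). On ethanol the difference was -0.46 ± 0.15 (adjusted p = 0.147).

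Tat (chr8:109986078-109999804) encodes tyrosine aminotransferase, the enzyme of tyrosine breakdown that is a classical glucocorticoid-induced gene of hepatocytes. It stood at 578, 352 and 491 CPM in WT con and at 1287, 762 and 1300 CPM in WT EtOH. In Ahr HKO con it stood at 2075, 657 and 1931 CPM, with liver 2 far below the other livers of its group, and in Ahr HKO EtOH at 2929, 4236 and 3158 CPM. The ranges rose in the order WT con, WT EtOH and Ahr HKO EtOH without overlap, and Ahr HKO con overlapped with WT EtOH alone. Tat rose 2.37-fold with ethanol in WT (log2 fold change 1.25 ± 0.26, adjusted p = 0.0287), and 1.14 ± 0.42 in Ahr HKO was not called (adjusted p = 0.0771). The interaction was -0.09 ± 0.53 (adjusted p = 0.926). Between genotypes Tat was 3.29-fold higher in Ahr HKO on the control diet (1.72 ± 0.42, adjusted p = 0.0213) and 3.10-fold higher on ethanol (1.63 ± 0.25, adjusted p = 0.0399).

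These calls of Tat rested on few livers, and in a single fit of all 12 libraries the adjusted p of the rise in WT was 0.0612. DESeq2 called the change with ethanol in Ahr HKO (1.15, adjusted p = 0.00885). The rise in WT was called in 1 of 6 fits that leave out a library, the one without WT EtOH liver 2, with log2 fold changes of 1.07 to 1.45 and adjusted p up to 0.0900 in the others. The genotype difference on ethanol was called in none of 6, with log2 fold changes of 1.44 to 1.75 and adjusted p of 0.0551 to 0.142. The genotype difference on the control diet was called in 2 of 6, and its adjusted p was 0.0770, 0.0666, 0.0576 and 0.0502 without WT con livers 2 and 3 and Ahr HKO con livers 1 and 3. Without Ahr HKO con liver 2 the change with ethanol in Ahr HKO was called at 0.78 (adjusted p = 0.0438).

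Ddit4 (chr10:59949675-59951770) encodes REDD1, an inhibitor of mTORC1 that glucocorticoids, hypoxia and ATF4 induce. Its livers were scattered, and in Ahr HKO EtOH the highest stood 4.29-fold above the lowest. Its values were 5.09, 4.61 and 8.44 CPM in WT con, 21.9, 9.38 and 11.4 in WT EtOH, 20.0, 6.83 and 11.3 in Ahr HKO con and 24.0, 21.9 and 5.59 in Ahr HKO EtOH. The WT groups did not overlap, and all other compared groups did. Its log2 fold change with ethanol was 1.24 ± 0.36 in WT (adjusted p = 0.0761) and 0.43 ± 0.57 in Ahr HKO (adjusted p = 0.591), and no difference was called by edgeR. DESeq2 called it for ethanol in WT (1.24, adjusted p = 0.00608) and for genotype on the control diet (1.08, adjusted p = 0.0193), and the latter was also called by edgeR without Ahr HKO con liver 2 (1.38, adjusted p = 0.0296).

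Mt1 (chr8:94178883-94180327) and Mt2 (chr8:94172618-94173567) encode metallothioneins, small cysteine-rich proteins that bind zinc and copper, and lie 5315 bases apart. Mt1 stood at 23.3, 70.9 and 401 CPM in WT con, at 279, 134 and 118 CPM in WT EtOH, at 2388, 1840 and 3352 CPM in Ahr HKO con and at 427, 211 and 190 CPM in Ahr HKO EtOH. Mt2 stood at 5.04, 30.7 and 219 CPM in WT con, 171, 79.8 and 83.8 in WT EtOH, 1476, 1264 and 2150 in Ahr HKO con and 320, 123 and 116 in Ahr HKO EtOH. The Ahr HKO con livers stood above all other livers for both genes, and the WT con livers spread so widely that they enclosed all WT EtOH livers. Between the lowest and the highest WT con liver the factor was 17.2 for Mt1 and 43.5 for Mt2. Together the 2 genes took 0.325 to 0.512% of the reads in Ahr HKO con and 0.00281 to 0.0615% in WT con.

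Mt1 fell 9.17-fold with ethanol in the livers labelled Ahr HKO (log2 fold change -3.20 ± 0.39, adjusted p = 0.00285), and Mt2 fell 8.77-fold (-3.13 ± 0.46, adjusted p = 0.00436), both in all 6 fits that leave out a library. For Mt2 the change was -3.77 without Ahr HKO EtOH liver 1. In WT, the changes were 0.12 ± 0.90 for Mt1 and 0.41 ± 1.08 for Mt2 (adjusted p = 0.952 and 0.850), an error that leaves large changes undetectable. On the control diet, Mt1 was 15.4-fold higher in Ahr HKO than in WT (3.94 ± 0.99, adjusted p = 0.0223) and Mt2 was 19.2-fold higher (4.27 ± 1.21, adjusted p = 0.0346). Without WT con liver 3, the highest of its group, these rose to 5.74 and 6.51 on the log2 scale (adjusted p = 0.00655 and 0.00908). Without WT con liver 2 they were 3.58 and 3.86 and not called (adjusted p = 0.0738 and 0.104), and for Mt2 the call was also lost without any single Ahr HKO con liver (adjusted p = 0.0596 to 0.0642). With limma on log2(FPKM + 1) the differences were 4.82 and 5.58 (adjusted p = 0.0115 and 0.0155). On the ethanol diet the differences were 0.64 ± 0.41 and 0.74 ± 0.46 and not called (adjusted p = 0.405 and 0.392).

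The interaction was -3.30 ± 1.13 for Mt1 (adjusted p = 0.0561) and -3.52 ± 1.35 for Mt2 (adjusted p = 0.0824). It was called for both by DESeq2 (adjusted p = 0.0261 and 0.0319) and without WT con liver 3 (-5.10 and -5.77, adjusted p = 0.00347 and 0.00581). The ratio of Mt1 to Mt2 counts was 4.62, 2.31 and 1.83 in the WT con livers and 1.34 to 1.72 in all livers of the other groups, so the lower the pair stood in WT con, the more it consisted of Mt1. How reads shared by these similar genes were assigned is not stated. With the counts of both genes summed, the log2 fold changes were -3.17 for ethanol in Ahr HKO (adjusted p = 0.00334) and 4.06 for genotype on the control diet (adjusted p = 0.0251).

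**Figure D4:**
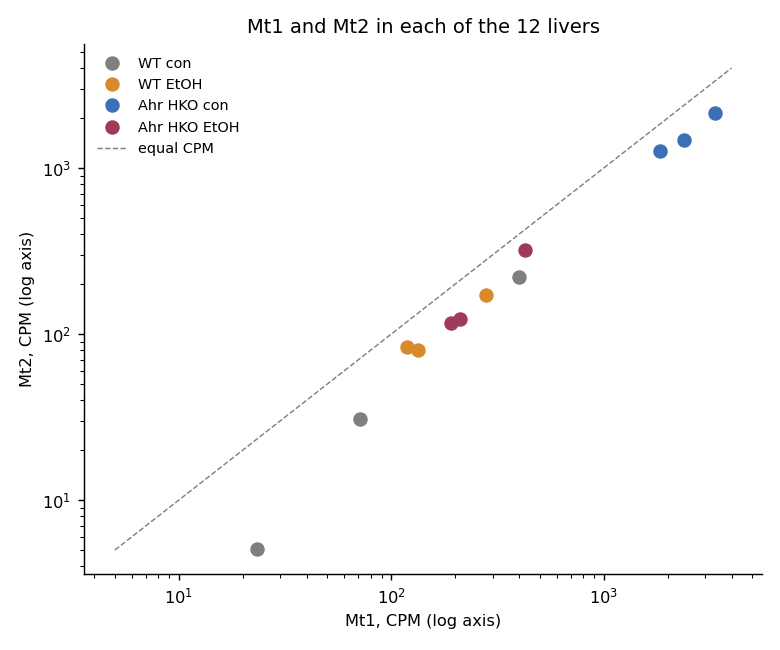
Mt2 against Mt1 in CPM on log axes, with 1 point per liver and a dashed line at equal CPM. The 3 Ahr HKO con livers sit apart at the top right, the WT con livers spread over the whole lower range, and the lowest WT con liver lies farthest from the line.

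Of 8 other genes of metal handling, 7 were tested. Mt4 was among them only through its counts in Ahr HKO con, so it is left out of the counts, and 4 of the other 6 were higher in Ahr HKO con than in WT con, against 15.4% of all tested genes. The zinc importers Slc39a10 and Slc39a14 were 10.5-fold and 4.08-fold higher (log2 fold change 3.39 ± 0.29 and 2.03 ± 0.22, adjusted p = 0.000912 and 0.00134). Slc30a10, a manganese exporter, was higher by 1.24 ± 0.28 and Mtf1, the metal-sensing transcription factor, by 0.47 ± 0.11 (adjusted p = 0.0157 and 0.0174). Mt4, a metallothionein of squamous epithelia, was at 0 counts in every liver of the other 3 groups and at 0.298 ± 0.083 CPM in Ahr HKO con (SD, n = 3). Slc30a1, a zinc exporter known as an MTF1 target, stood at 39.8 ± 5.20 CPM in WT con and 32.6 ± 3.09 in Ahr HKO con and was not called (-0.28, adjusted p = 0.132). Without WT con liver 3, 2 of the 6 were called higher. With ethanol in Ahr HKO, 2 of the 6 fell, Slc39a10 (-2.66 ± 0.20, adjusted p = 0.00127) and Slc39a14 (-1.67 ± 0.20, adjusted p = 0.00268), and Slc39a4 rose (0.88 ± 0.13, adjusted p = 0.00414). Of all tested genes, 15.9% fell and 14.9% rose there, so the share that rose was near that of all genes. In WT no gene of this list was called with ethanol by edgeR (1 at an unadjusted p under 0.05, and 1 called by DESeq2).

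Other genes known to respond to glucocorticoids were followed in a list of 24, all tested. With ethanol in WT, 7 rose and none fell by edgeR, against 4.84% and 4.63% of all tested genes (10 and 1 by DESeq2). The list median was 0.78, and 13 of 24 had an unadjusted p under 0.05, against 3708 of all 14038 genes. Those that rose included Pck1, the gluconeogenic enzyme PEPCK (1.53 ± 0.17, adjusted p = 0.00403), Pdk4, an inhibitor of pyruvate oxidation (2.48 ± 0.24, adjusted p = 0.00297), Igfbp1, which binds insulin-like growth factors (3.64 ± 0.57, adjusted p = 0.0136), and the clock gene Per1 (1.34 ± 0.25, adjusted p = 0.0221). Without WT con liver 1, 2 or 3, the count was 4, 2 and 3. Sult1e1 passed the low-count filter only through Ahr HKO con and is left out of the counts with that group. In Ahr HKO, 4 of the other 23 rose and 1 fell, with a median of 0.24, against 14.9% and 15.9% of all tested genes, so the share that rose was near that of all genes. Pck1 and Pdk4 rose there as well (1.33 ± 0.28 and 0.97 ± 0.30, adjusted p = 0.0131 and 0.0457), the rise of Pdk4 being smaller than in WT (interaction -1.49 ± 0.40, adjusted p = 0.0234), and Anxa1, an anti-inflammatory annexin, fell (-1.53 ± 0.22, adjusted p = 0.00440). The count of those that rose was 2 without Ahr HKO EtOH liver 1 or 3. G6pc, the enzyme that releases glucose, was scattered and not called (2.19 in WT and 1.03 in Ahr HKO, adjusted p = 0.124 and 0.246).

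Between genotypes on the control diet, 11 of these 23 genes were higher in Ahr HKO and none was lower by edgeR (11 and 1 by DESeq2), with a median of 0.99, against 15.4% and 14.2% of all tested genes. The largest among those with a mean count of at least 50 were the cell cycle inhibitor Cdkn1a (4.44 ± 0.26, adjusted p = 0.000412), Fam107a, an actin-associated protein gene (3.52 ± 1.00, adjusted p = 0.0355), Igfbp1 (2.37 ± 0.66, adjusted p = 0.0323) and the phosphatidate phosphatase gene Lpin1 (1.84 ± 0.32, adjusted p = 0.00663). The count was 6, 6 and 7 without WT con livers 1, 2 and 3. On the ethanol diet 3 were higher, the transcriptional repressor Bcl6 (3.22 ± 0.21, adjusted p = 0.00312), Fam107a (4.01 ± 0.55, adjusted p = 0.0357) and Arrdc2, an arrestin-domain gene (1.97 ± 0.31, adjusted p = 0.0433), and none was lower, against 0.712% and 0.392% of all tested genes. DESeq2 called 7 higher and 1 lower. The edgeR count was 1 without WT EtOH liver 1 or Ahr HKO EtOH liver 2 and was 2 without any other single library. The median there was 0.51.

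Genes of ligand supply and receptor partners numbered 10, of which 9 were tested. Hsd11b1, whose enzyme regenerates active glucocorticoid in liver, rose with ethanol to a like extent in WT (0.79 ± 0.15, adjusted p = 0.0242) and in Ahr HKO (0.79 ± 0.18, adjusted p = 0.0170). Serpina6, the plasma carrier of corticosterone, rose in WT from 176 ± 32.8 to 467 ± 129 CPM (1.42 ± 0.23, adjusted p = 0.0153) and stood at 100 ± 42.7 and 194 ± 51.2 CPM in Ahr HKO con and Ahr HKO EtOH (0.95, adjusted p = 0.0671). Srd5a1, which inactivates steroids by 5-alpha reduction, fell with ethanol in WT from 149 ± 34.9 to 39.6 ± 17.4 CPM (-1.89 ± 0.36, adjusted p = 0.0232) and rose in Ahr HKO from 48.4 ± 6.09 to 147 ± 31.5 CPM (1.61 ± 0.18, adjusted p = 0.00234), and the interaction was called (3.51 ± 0.44, adjusted p = 0.000651). Nr3c2, the mineralocorticoid receptor that also binds corticosterone, was lower in Ahr HKO con than in WT con (-1.13 ± 0.17, adjusted p = 0.00387). In all, 3 rose and 1 fell with ethanol in WT, against 4.84% and 4.63% of all tested genes. In Ahr HKO 4 rose with ethanol, against 14.9% of all genes. On the control diet 2 were lower in Ahr HKO con than in WT con, against 14.2%. None was called between genotypes on ethanol by edgeR, against 0.712% higher and 0.392% lower. DESeq2 called 1 higher and 3 lower in that last comparison. Without WT con livers 1, 2 and 3 the number that rose in WT was 2, 1 and 1, and without Ahr HKO con liver 1 or 2 or Ahr HKO EtOH liver 1 the number that rose in Ahr HKO was 2. Without Ahr HKO con liver 3, 4 were lower in Ahr HKO con than in WT con.

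Chaperones and coregulators of the receptor numbered 17, all tested. Hsp90aa1, the inducible HSP90, was higher in Ahr HKO con (347 ± 65.3 CPM) than in WT con (91.1 ± 20.8 CPM), by 1.93 ± 0.21 on the log2 scale (adjusted p = 0.00138). With ethanol in Ahr HKO, 7 rose and 3 fell, against 14.9% and 15.9% of all tested genes. The share that fell was near that of all genes. The largest changes were rises of the coactivator Ppargc1a (1.51 ± 0.15, adjusted p = 0.00182), the co-chaperone Fkbp4 that opposes FKBP51 (1.24 ± 0.15, adjusted p = 0.00269), Hspa8 (1.12 ± 0.19, adjusted p = 0.00678) and Stip1 (0.93 ± 0.18, adjusted p = 0.00984). In WT, Ppargc1a rose (0.60 ± 0.14, adjusted p = 0.0417) and the coactivator Ncoa2 fell (-0.41 ± 0.09, adjusted p = 0.0342). These calls in WT were lost without any single WT con liver or without WT EtOH liver 2, that of Ppargc1a also without WT EtOH liver 3, whereas 4 rose without WT EtOH liver 1. In Ahr HKO, leaving out any single library gave fewer calls, with 4 to 5 rising and 1 to 2 falling. The counts were 4 and 1 without Ahr HKO EtOH liver 2 or 3, and 5 and 1 without Ahr HKO con liver 1. On the control diet 5 of 17 were higher and 1 was lower in Ahr HKO, against 15.4% and 14.2% of all tested genes, and without WT con liver 2 or 3 it was 3 that were higher, a share near that of all genes. On the ethanol diet none was called by edgeR, against 5 higher by DESeq2.

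**Figure D5:**
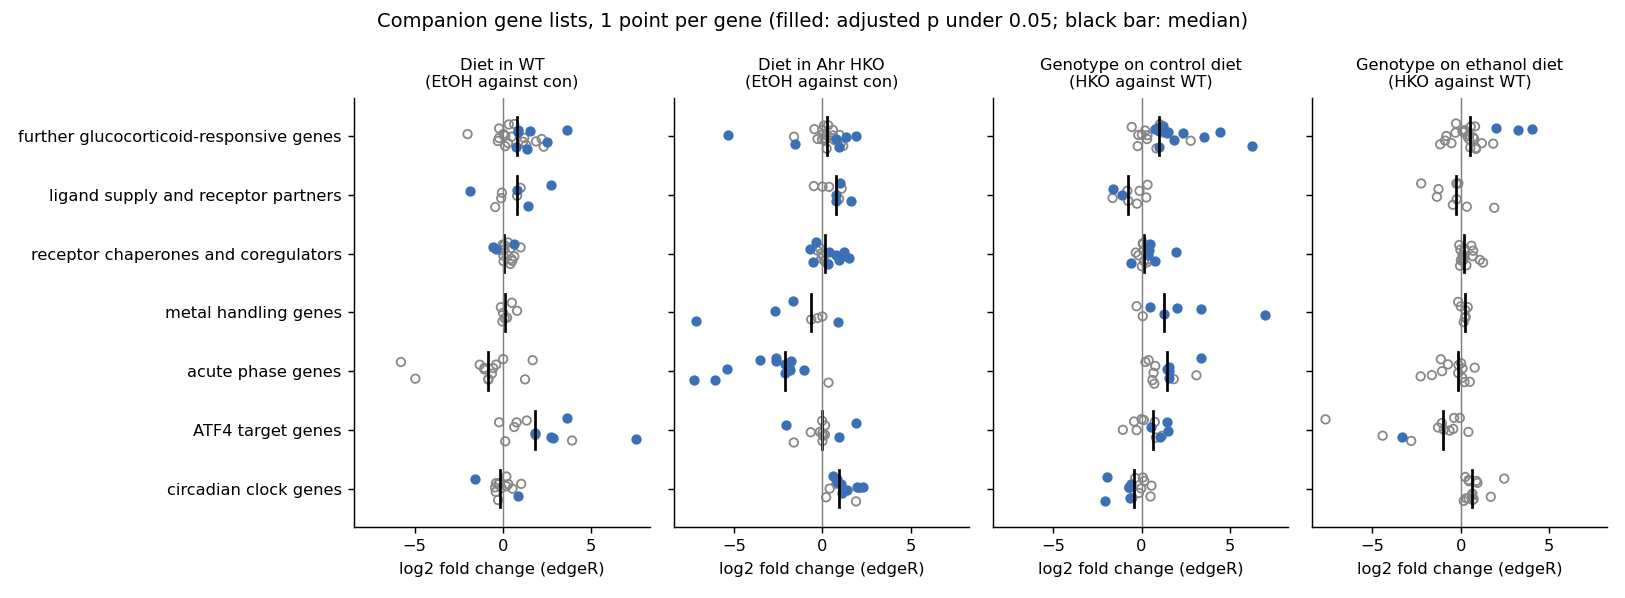
Log2 fold change (horizontal axis, edgeR) of every tested gene of 7 companion lists in the 4 comparisons between groups, filled where the adjusted p was under 0.05, with a black bar at the list median. Further glucocorticoid-responsive genes lie mostly right of 0 for ethanol in WT and for genotype on the control diet, where their medians are 0.78 and 1.01 with Sult1e1 plotted, and acute phase genes lie left of 0 for ethanol in Ahr HKO.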

How the data were processed

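Livers were sequenced as poly-A selected, stranded, paired-end libraries, 12 in all. The authors deposited read counts per gene, raw and not pooled, beside FPKM (scaled by gene length and library size) and TPM on build mm10. The deposited TPM values were not used. The submitters' processing notes name FastQC 0.11.7, Trimmomatic 0.38, HISAT2 2.1.0, Bowtie2 2.3.4.1 and StringTie 1.3.4d, with the role of each, the use of strand and the handling of shared or overlapping reads not given in the sources used here. No 2 libraries of 66 pairs were identical.

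Groups came from the GEO labels. Counts were filtered (filterByExpr), scaled by TMM (factors 0.925 to 1.16) and tested with edgeR 4.0.16 in R 4.3.3, each pair of groups on its own 6 libraries and the interaction on all 12, with Benjamini-Hochberg adjustment over 14038 genes and a threshold of 0.05. SE is the log2 fold change divided by the square root of F. Counts over a list leave out a gene that passed the filter only through a group in that comparison (Mt4, Sult1e1 and Slc7a11). Named genes were the 10 genes in every comparison, up to 4 genes of each list per comparison by size of called change (mean count minimum 50), and the 3 genes nearest to Nr3c1 and Fkbp5. G6pc, Slc30a1, Mt4 and Gpt fall outside this rule, as do Serpina6 in Ahr HKO and the interactions of Anxa1 and Pdk4. Saa1 and Saa2 fall outside it in WT and in the interaction. All of these were named after their values were seen, and not every value that the rule named is printed. A gene that the rule named is not reported here. The 10 genes and all lists were chosen with earlier results of these data known. Alternatives were DESeq2 1.42.0, upper-quartile scaling, no filter, a replicate block, limma 3.58.1 on log2(FPKM + 1) and log2(FPKM + 0.1), a single fit of all 12 libraries, Mt1 and Mt2 summed, and leaving out each library. Promoter windows and gene positions came from RefSeq (GRCm38.p6), matched by Entrez identifier for all 10 genes. Of genes that overlap the 10 in that annotation, Mir1192 in Klf9 is the one in the table.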

Additional observations from a re-analysis of the deposited data

Results flagged for a closer look

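The diet effect differed between genotypes, by the interaction term of the edgeR fit on 12 libraries, for 2 of the 10 genes: Sgk1 by -0.99 and Zbtb16 by -1.26 on the log2 scale (adjusted p = 0.0113 and 0.00753), both with the larger rise in WT. Of all tested genes, 11.2% were called upward and 11.1% downward by this test. Among genes of ligand supply it differed for Srd5a1 by 3.51, which fell with ethanol in WT and rose in the livers labelled Ahr HKO, for Abcb1a, a drug and steroid efflux pump, by -1.68, and for Nr3c2 by 0.90 (adjusted p = 0.000651, 0.0312 and 0.0422). Among chaperones and coregulators it differed for Ppargc1a by 0.93 and Fkbp4 by 0.78 (adjusted p = 0.00852 and 0.0237). These were 2 of 17, a share near that of all genes called upward. Among 23 further glucocorticoid-responsive genes it was called upward for 3, a share near that of all genes, and downward for 4. These counts leave out Sult1e1, which passed the low-count filter only through Ahr HKO con. The diet effect differed for Cdkn1a by -3.89, Igfbp1 by -3.53, Bcl6 by 3.20 and Arrdc2 by 2.15 (adjusted p = 0.0200, 0.0200, 0.0307 and 0.00272). The others were Anxa1 by -1.80, Pdk4 by -1.49 and Gpt by 1.04 (adjusted p = 0.00872, 0.0234 and 0.0436).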

How the results depend on the processing

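With 3 livers a group, leaving out 1 library decided several calls. The number of the 10 genes called ranged over these fits from 2 to 4 for ethanol in WT, 2 to 4 for ethanol in Ahr HKO, 3 to 7 for genotype on the control diet, 0 to 2 for genotype on ethanol and 2 to 5 for the interaction. The interaction was called for 4 genes instead of 2 by DESeq2, by limma on log2(FPKM + 1) and by limma on log2(FPKM + 0.1). FPKM carry no composition scaling, and with the pseudocount of 0.1 the median of all genes moved to 0.16 for ethanol in WT, -0.21 for genotype on ethanol and -0.24 for the interaction. The split of all calls moved with it, from 679 higher and 650 lower to 1498 and 385 for ethanol in WT with log2(FPKM + 1), from 100 and 55 to 71 and 311 for genotype on ethanol (718 and 803 with DESeq2), and from 1576 and 1561 to 806 and 2640 for the interaction. For ethanol in WT DESeq2 called 1190 and 1145, and for genotype on ethanol the calls fell to 6 and 1 without Ahr HKO EtOH liver 3 and reached 329 and 246 in the single fit of all 12 libraries.

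Values that changed sign were all of uncalled differences. Under limma on log2(FPKM + 1) and log2(FPKM + 0.1), they were Nr3c1 for ethanol in WT (0.12 and 0.13) and for the interaction (-0.036 and -0.036), Klf9 and Ddit4 for genotype on ethanol (-0.0044 and -0.0046 for Klf9, -0.063 and -0.10 for Ddit4), and Tsc22d3 for the interaction (-0.095 and -0.11). Over fits without 1 library, Nr3c1 for ethanol in WT ranged from -0.061 to 0.024, Mt1 from -0.40 to 1.92 and Mt2 from -0.15 to 2.64, Klf9 from -0.069 to 0.29 for ethanol in Ahr HKO and -0.28 to 0.068 for genotype on the control diet, Ddit4 from -0.022 to 0.73 for genotype on ethanol, and the interaction of Tsc22d3 from -0.28 to 0.70 and of Tat from -0.46 to 0.17. The cause was not tested.

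Same-numbered livers showed no clear shared deviation (r from -0.09 to 0.18 over 18 pairs). With so few livers per group, these values cannot decide whether the numbers pair the livers. The numbers are those of the sample titles. The deposited data also carry other liver labels, and pairing by those was not tested. A fit with a replicate block called 289 and 228 genes for ethanol in WT, none of them among the 17 listed chaperones and coregulators, and turned the interaction of Tat to 0.087. Of the called values, the block took Nr3c1 and Sgk1 (genotype on the control diet), Zbtb16 (ethanol in Ahr HKO) and Tat (genotype on ethanol) to adjusted p of 0.0614, 0.0566, 0.105 and 0.0600.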

Other observations

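Acute phase genes, which the liver secretes in inflammation and which glucocorticoids help to induce, fell with ethanol in the livers labelled Ahr HKO in 12 of 13 cases (list median -2.14), against 15.9% of all tested genes. The log2 fold changes were -7.25 and -5.39 for the serum amyloid genes Saa2 and Saa1, -6.08 for Lcn2, which binds iron siderophores, and -3.50 for the protease inhibitor gene Serpina3n (adjusted p of 0.000982, 0.000918, 0.00138 and 0.000982). The count was 11 without Ahr HKO EtOH liver 3. In WT none was called with ethanol by edgeR, although 10 of 13 were lower, 5 at an unadjusted p under 0.05, and DESeq2 called 4 lower. Saa2 and Saa1 had log2 fold changes of -5.78 and -4.97 there (adjusted p = 0.0742 and 0.0649), and their interactions of -1.44 and -0.40 were not called (adjusted p = 0.554 and 0.860). For Lcn2 and Serpina3n the interactions were -4.74 and -3.50 (adjusted p = 0.0349 and 0.000369). On the control diet 5 of 13 were higher in Ahr HKO, against 15.4% of all tested genes, including Serpina3n (3.35, adjusted p = 0.000932) and the fibrinogen chain Fga (1.55, adjusted p = 0.00260).

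Clock genes rose with ethanol in Ahr HKO in 8 of 14 cases, against 14.9% of all tested genes, with a list median of 0.96, including Nr1d1 (1.12, adjusted p = 0.00365) and Dbp (2.31, adjusted p = 0.0380), and the count was 2 without Ahr HKO con liver 2 or 3 or Ahr HKO EtOH liver 2, and 3 without Ahr HKO EtOH liver 3. On the control diet 5 were lower in Ahr HKO, against 14.2% of all genes, including Dbp (-2.08) and Nr1d1 (-0.67, adjusted p = 0.0108 and 0.00545), and 3 without WT con liver 3. ATF4 targets, a stress response to amino acid shortage, rose with ethanol in WT in 4 of 11 cases, against 4.84% of all tested genes, including Atf3 (3.65, adjusted p = 0.0135) and Psat1 (2.71, adjusted p = 0.00787), in 2 without any single WT con liver and in 7 without WT EtOH liver 2. These counts leave out Slc7a11, which had counts only in WT EtOH. Psat1 fell with ethanol in Ahr HKO (-2.08, adjusted p = 0.0137), and 2 of the 12 rose there, a share near the 14.9% of all tested genes.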
